A study of Mus musculus with 6 samples.

Results

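The neurotrophins and their receptors were examined in the left hippocampus of mouse pups at postnatal day 14 (P14). The group holds 6 genes, 2 ligands (Bdnf and Ntf3), 2 Trk receptor tyrosine kinases (Ntrk2 and Ntrk3), the shared receptor Ngfr and the co-receptor Sort1. They were chosen by gene name, and all 6 were found among the 24935 genes of the deposited table. C57BL/6 pups of both sexes stayed with their dams in 85% oxygen (hyperoxia, n = 3) or in room air (air, n = 3) from P2, and the hippocampus was taken at the end of the exposure. Each library came from 1 mouse, and the labels name no treatment or allele besides the exposure and give no sex or litter for a library. The values, called normalized counts here, are read counts scaled by the authors with 1 size factor for each library. The numbers 1 to 3 of the libraries are those of the deposited columns and name no animal. Air and hyperoxia mean the libraries so named in those columns, and every sign given here rests on these names. For Bdnf, and for others of the genes named here such as Arc, Egr1, Chgb and Dlg4, tables or text of the study give the opposite direction. On Arc and Egr1 the study is divided, as its tables and discussion give an increase and its results text a decrease, the direction found here. Whether the groups are exchanged in the columns or in the study's account cannot be told from these counts.

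Neurotrophins are secreted growth factors that keep neurons alive and shape their synapses. They are made as precursors that proteases cut to the mature form. Mature BDNF binds TrkB, the product of Ntrk2, and NT-3, the product of Ntf3, binds TrkC, the product of Ntrk3. The precursors bind p75, the product of Ngfr, together with sortilin, the product of Sort1, which also sorts the BDNF precursor into secretory vesicles. In the hippocampus BDNF is known for its part in long-term potentiation, and Ntf3 mRNA is known to be abundant in dentate granule cells.

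The mRNA of both ligands and of sortilin fell with hyperoxia, whereas that of the Trk receptors did not pass the test. Ntf3 fell by 50.1% and Bdnf by 26.3%, and Sort1 fell by 21.2%. Ntrk2 differed by −0.794% and Ntrk3 by 1.97%, and neither passed. Ngfr, the least abundant member, had a higher mean in hyperoxia but did not pass. A gene was called where the adjusted p of limma was under 0.05 over all 17778 genes tested, and 3 of the 6 members were called, all lower. Of all genes tested, 30.5% were called, 14.9% higher and 15.6% lower in hyperoxia. The groups did not overlap in 4 of the 6 members (Bdnf, Ntf3, Sort1 and Ngfr), against 46.1% of all genes tested.

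**Figure D1:**
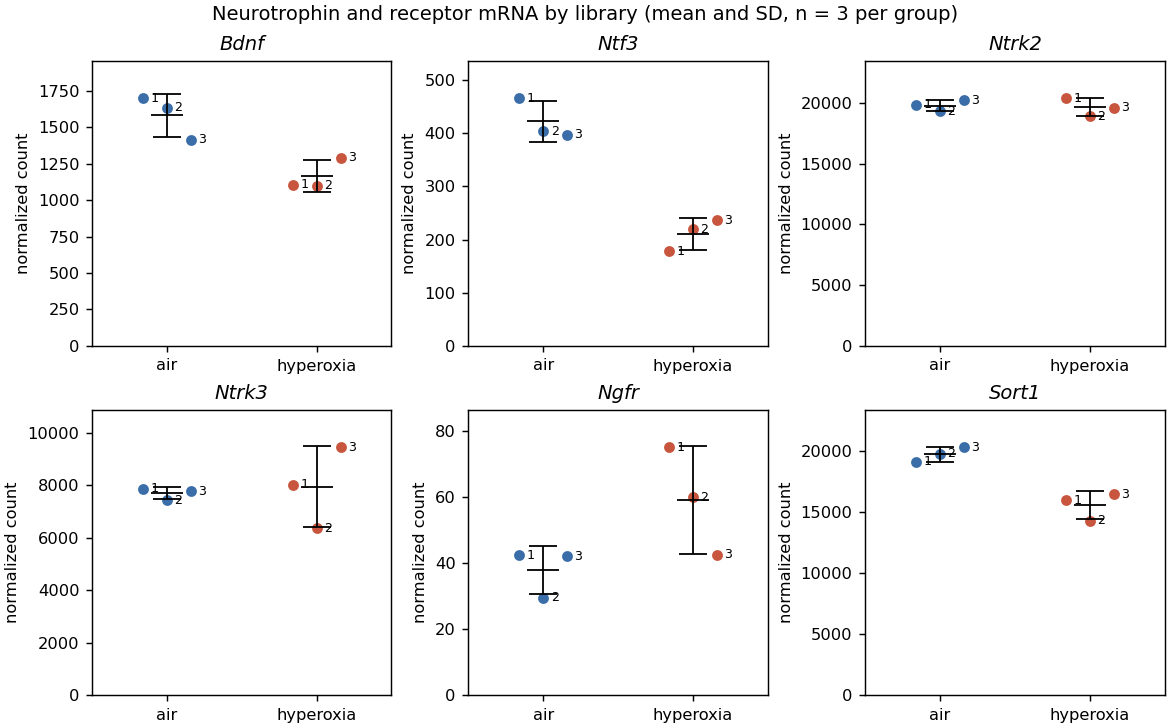
Normalized count of each member (vertical axes from 0) in the air and hyperoxia libraries, with a point for each library numbered as in the deposited columns and bars for the mean and SD of 3. The hyperoxia points of Bdnf, Ntf3 and Sort1 lie below every air point, those of Ntrk2 and Ntrk3 overlap with air, and those of Ngfr begin where the air points end.

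The libraries held from 30384052 to 38746972 reads on genes, and the median tested gene had 449 to 576 reads per library. Hyperoxia library 2 stood apart on the second principal component, which held 19.53% of the variance, and without it 7756 genes were called in place of 5425. Fewer were called without air library 1 (3048), air library 2 (3087) or hyperoxia library 1 (3378). Hyperoxia library 3 held choroid plexus RNA, with a summed normalized count of 8228 over 8 markers such as Ttr, against 506 to 1431 in the other 5. Markers of hippocampal excitatory neurons were high in every library, with sums of 198268 to 316308. In bulk tissue, fewer cells of a type and less RNA per cell cannot be told apart.

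Bdnf transcripts begin at several alternative first exons that are each joined to a common coding exon, and its promoter ahead of exon IV is the classical example of a neuronal promoter driven by activity through the factor CREB. The deposited table gives 1 count per gene, so the values of Bdnf and Ntf3 add up all of these starts, and a change at 1 start cannot be seen in them. The 80 bases before each RefSeq start of both ligands (GRCm38.p6, 5′ to 3′ on the gene's strand) are shown because they are the starts that the count pools. Capitals mark CGTCA, the core of the cyclic AMP response element to which CREB binds.
Bdnf start 1 (chr2:109674620-109674699, plus strand): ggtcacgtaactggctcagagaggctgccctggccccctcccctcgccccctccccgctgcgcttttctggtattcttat
Bdnf start 2 (chr2:109676952-109677031, plus strand): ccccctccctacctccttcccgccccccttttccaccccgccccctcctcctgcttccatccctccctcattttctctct
Bdnf start 3 (chr2:109692356-109692435, plus strand): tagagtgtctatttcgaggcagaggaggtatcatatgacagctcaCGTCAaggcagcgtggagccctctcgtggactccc
Bdnf start 4 (chr2:109692947-109693026, plus strand): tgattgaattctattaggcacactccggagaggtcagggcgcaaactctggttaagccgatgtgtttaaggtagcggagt
Bdnf start 5 (chr2:109694329-109694408, plus strand): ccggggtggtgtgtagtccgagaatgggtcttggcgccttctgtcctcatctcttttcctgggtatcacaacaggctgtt
Bdnf start 6 (chr2:109709303-109709382, plus strand): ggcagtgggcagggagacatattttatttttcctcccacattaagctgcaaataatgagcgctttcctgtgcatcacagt
Bdnf start 7 (chr2:109722841-109722920, plus strand): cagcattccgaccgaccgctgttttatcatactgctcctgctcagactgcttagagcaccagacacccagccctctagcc
Ntf3 start 1 (chr6:126166745-126166824, minus strand): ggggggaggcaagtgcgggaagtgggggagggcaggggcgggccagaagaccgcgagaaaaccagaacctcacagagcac
Ntf3 start 2 (chr6:126164961-126165040, minus strand): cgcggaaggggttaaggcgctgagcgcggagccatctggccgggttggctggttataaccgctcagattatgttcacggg

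The search covered 250 bases before and 50 after each start, on both strands, for CGTCA and for its reverse complement. Among the 7 Bdnf windows only that of start 3 held it, once, beginning 35 bases before the start. Neither of the 2 Ntf3 windows held these letters. Over all 32851 windows of the RefSeq table, 20.8% held this core, and 1.79% held the full element TGACGTCA, which none of the 9 windows held. Windows for Ntrk2 and Ngfr were searched as well, and neither held it.

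Bdnf, which encodes the main neurotrophin of the mature forebrain, was lower in the libraries named hyperoxia in the deposited columns. The study reports the opposite direction, an increase of its mRNA with hyperoxia. GENCODE release M21 (GRCm38) places the gene (ENSMUSG00000048482.14) on the plus strand of chromosome 2, between 109674700 and 109727007, with 11 transcripts. In air, libraries 1, 2 and 3 had normalized counts of 1699, 1632 and 1416, whereas in hyperoxia they had 1104, 1099 and 1291. The highest hyperoxia value, in library 3, stayed below the lowest air value, also in library 3. Air averaged 1582 ± 148 (SD, n = 3) and hyperoxia 1165 ± 110 (SD, n = 3), and the change of −0.44 on the log2 scale (limma, SE 0.10, adjusted p = 0.0089) was larger than the spread between mice. Its 95% interval ran from −0.66 to −0.22. The call was lost without air library 1 (log2 fold change −0.39, adjusted p 0.051) and held in the other 15 alternatives, in which the adjusted p ranged from 8.0e-04 up. The antisense gene Gm45346 shares 896 exon bases with Bdnf but had a mean normalized count of only 1.16.

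Ntf3, the gene of NT-3, showed the largest change among the members. Its position (ENSMUSG00000049107.13) is chromosome 6, 126101412 to 126166910, minus strand. The air libraries gave normalized counts of 466, 404 and 397, and the hyperoxia libraries gave 178, 220 and 236. All 3 hyperoxia values lay far below all 3 air values. Air averaged 422 ± 38.0 (SD, n = 3) and hyperoxia 211 ± 30.3 (SD, n = 3), a log2 fold change of −1.003 (limma, SE 0.13, adjusted p = 0.0010), with a 95% interval of −1.29 to −0.71. It was called under all 16 alternatives, and with each library left out it stayed between −1.09 and −0.88. Between 194 and 495 reads per library stand behind these values.

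Marker lists of hippocampal neurons differed in direction. Of all genes tested, 14.9% were called higher in hyperoxia and 15.6% lower. Of 7 dentate granule cell markers, 5 were called lower and none higher, and their summed normalized count was 19897 to 20429 in air and 12539 to 18222 in hyperoxia. Of 5 excitatory neuron markers, 4 were called lower and 1 higher, with sums of 297722 to 316308 in air and 198268 to 218874 in hyperoxia. Of 6 CA3 pyramidal cell markers, 3 were called lower and 1 higher. The CA3 sums were 12960 to 13326 in air and 10249 to 12280 in hyperoxia. Of 5 CA1 pyramidal cell markers, 2 were called higher and none lower, and their sums overlapped, at 20545 to 21286 in air and 19136 to 24260 in hyperoxia. The part of these markers in the lower Bdnf and Ntf3 values was not tested.

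Ntrk2, the gene of TrkB, is by count one of the most abundant members and had nearly the same level in both groups. Its position (ENSMUSG00000055254.14) is chromosome 13, 58806569 to 59133970, plus strand. Air libraries 1, 2 and 3 gave 19829, 19293 and 20191, and hyperoxia libraries 1, 2 and 3 gave 20374, 18880 and 19606. The groups overlapped fully, with the highest and the lowest of the 6 values both in hyperoxia. The 95% interval of the change reached from −0.17 to 0.15 on the log2 scale, which is a difference of −11.1% to 10.6%. The gene makes full-length TrkB with a kinase domain and truncated TrkB without it, which is typical of astrocytes, and 1 count over the 10 annotated transcripts cannot separate them. Astrocyte markers had a summed count of 203420 to 213015 in air and of 238892 to 257925 in hyperoxia. Of these 8 markers, 3 were called higher and 1 lower, against 14.9% and 15.6% of all genes tested.

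Ntrk3, the gene of TrkC, did not differ on average either, but its hyperoxia libraries were spread more widely. Its position (ENSMUSG00000059146.12) is chromosome 7, 78175959 to 78738012, minus strand. Normalized counts were 7871, 7434 and 7775 in air and 8018, 6366 and 9449 in hyperoxia. Hyperoxia library 2 was the lowest of the 6 and hyperoxia library 3 the highest, so that the coefficient of variation was 2.99% in air and 19.4% in hyperoxia. The log2 fold change was 0.03 (limma, SE 0.12, adjusted p = 0.88), with a 95% interval of −0.25 to 0.31, so a difference of −16.0% to 23.7% was within the error. The value was 0.18 without hyperoxia library 2 and −0.11 without hyperoxia library 3, and neither was called.

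Both Trk receptor genes were called lower once the dependence on transcript length and GC content had been removed from each library. That setting gave −0.26 (limma adjusted p 0.024) for Ntrk2 and −0.29 (0.0092) for Ntrk3, against ranges of 0.024 to 0.99 and 0.0092 to 0.99 over their alternatives. They have the longest exon regions of the members, 19292 and 30170 bases. By the longest transcript, the length that the correction used, they have 8744 and 19703 bases, followed by Sort1 with 6836. No other alternative called either of them. Whether the Trk receptors were called thus depends on this choice, while Bdnf, Ntf3 and Sort1 were called with it as without it.

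**Figure D2:**
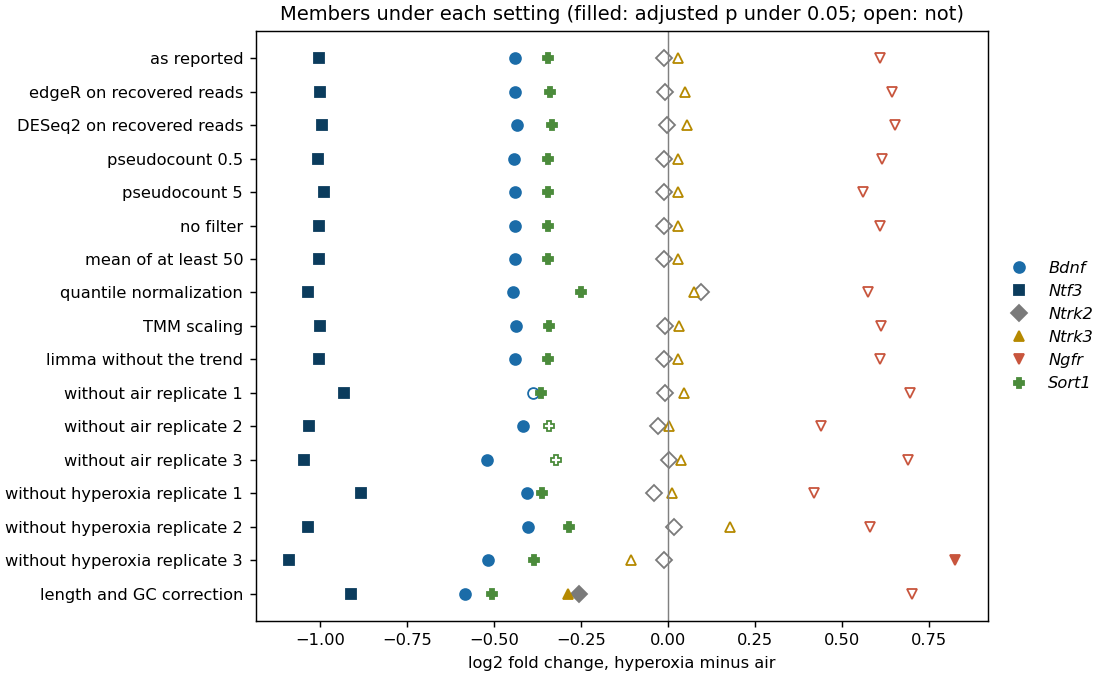
Log2 fold change (hyperoxia minus air, horizontal axis) of the 6 members as reported and under 16 other settings (rows), with filled symbols for an adjusted p under 0.05. Ntf3 stays between −1.09 and −0.88, Bdnf and Sort1 stay below 0, Ngfr stays above 0 and is filled only without hyperoxia replicate 3, and Ntrk2 and Ntrk3 lie between −0.11 and 0.18 except in the row of the length and GC correction.

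Ngfr encodes p75, the receptor that binds all neurotrophins and, with sortilin, their precursors. Its position (ENSMUSG00000000120.6) is chromosome 11, 95568818 to 95587735, minus strand. The normalized count was 42.4, 29.5 and 42.1 in air and 75.1, 60.004 and 42.5 in hyperoxia. Hyperoxia library 3 lay less than 1 read above air library 1, so the groups touched without overlapping. Air averaged 38.0 ± 7.35 (SD, n = 3) and hyperoxia 59.2 ± 16.3 (SD, n = 3), and the log2 fold change was 0.61 (limma, SE 0.26, adjusted p = 0.099) and did not pass. Only 29 to 85 reads per library were counted. It passed only without hyperoxia library 3, at 0.82 with an adjusted p of 0.033, in a range of 0.033 to 0.31 over 15 alternatives.

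Ngfr is also made by cells around vessels and in the meninges, and by cholinergic neurons whose axons reach the hippocampus. Of 7 fibroblast and leptomeningeal markers, 6 were called higher, against 14.9% of all genes tested. Their sums were 7935 to 9919 in air and 10567 to 16117 in hyperoxia. Cholinergic markers were near 0, with summed counts of 46.8 to 61.6 in air and 83.8 to 99.9 in hyperoxia over 5 genes, of which Isl1 and Gbx1 were at 0 in some libraries and the 2 that could be tested were called higher. Chat, the enzyme that makes acetylcholine, averaged 3.66 in air and 6.72 in hyperoxia. The part of these cells in the Ngfr values was not tested.

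Sort1, the gene of sortilin, was lower in the libraries named hyperoxia in the deposited columns. Its position (ENSMUSG00000068747.14) is chromosome 3, 108284082 to 108361511, plus strand. Air libraries 1, 2 and 3 gave 19148, 19799 and 20335, and hyperoxia libraries 1, 2 and 3 gave 15968, 14323 and 16484. Every hyperoxia value was below every air value, and the spread within a group was small, with coefficients of variation of 3.01% and 7.24%. The log2 fold change was −0.34 (limma, SE 0.08, adjusted p = 0.010), with a 95% interval of −0.52 to −0.17. The call was lost narrowly without air library 2 (adjusted p 0.050) and without air library 3 (0.051), and held in the other 14 alternatives, where the lowest was 5.3e-04. Leaving out hyperoxia library 2 gave −0.28, the smallest change among those with a library left out.

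Other genes of the neurotrophin system gave 2 calls among 7 tested (28.6%, against 30.5% of all genes), and 1 without air library 2. Sorcs1, a sorting receptor of the same family as sortilin, rose from 307 ± 41.8 (SD, n = 3) to 559 ± 186 (SD, n = 3), with a log2 fold change of 0.82 (limma, SE 0.20, adjusted p = 0.015). Its hyperoxia values were 771, 421 and 485, each above the air values of 326, 259 and 337. The Sorcs1 call was lost without air library 2 (0.068), in limma without the trend (0.057) and after the length and GC correction (0.066).

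The relatives described next were not called. Sorcs2, which pairs with p75, differed by −0.09 (limma adjusted p = 0.38). Sorcs3 differed by −0.05 (0.80) and Sorl1, another receptor of the sortilin family, by −0.12 (0.45) on the log2 scale. The length and GC correction alone called Sorl1, at −0.37 (0.0039, in a range of 0.0039 to 0.86). Nradd, which is related to p75 and lacks its ligand-binding part, differed by −0.35 (0.29). Ntf5, the gene of neurotrophin 4, was close to the detection limit, with 5 to 21 reads per library, and its difference of −0.77 (0.23) had an interval of −1.80 to 0.26.

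**Figure D3:**
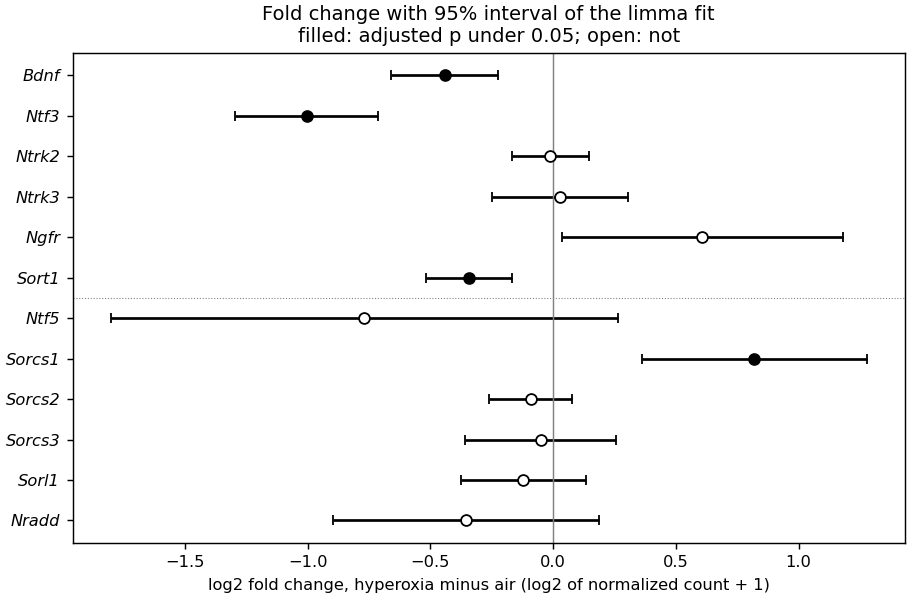
Log2 fold change with its 95% interval (horizontal axis, hyperoxia minus air, limma) for the 6 members above the dotted line and 6 related genes below it. The intervals of Bdnf, Ntf3 and Sort1 lie wholly below 0 and that of Sorcs1 wholly above 0, while those of Ntrk2 and Ntrk3 include 0 and the intervals of Ngfr and Ntf5 are the widest.

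Levels were compared between genes as normalized counts per kilobase of annotated exons. In air, Sort1 was highest with 2611 ± 78.5 (SD, n = 3) and Ntrk2 followed with 1025 ± 23.4 (SD, n = 3). Ntrk3 with 255 ± 7.62 (SD, n = 3), Bdnf with 255 ± 23.8 (SD, n = 3) and Ntf3 with 246 ± 22.2 (SD, n = 3) could not be ordered beyond their spread by this length. Ngfr was far below them at 11.03 ± 2.13 (SD, n = 3). In hyperoxia Ntf3 had 123 ± 17.7 (SD, n = 3) per kilobase and Bdnf 187 ± 17.6 (SD, n = 3), and no Ntf3 library reached the lowest Bdnf library. Sort1 and Ntrk2 did not overlap per kilobase of exons, but they overlapped when the longest transcript was used as the length (2095 to 2975 for Sort1 and 2159 to 2330 for Ntrk2). That length also set the air mean of Bdnf (371) further above that of Ntf3 (285).

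**Figure D4:**
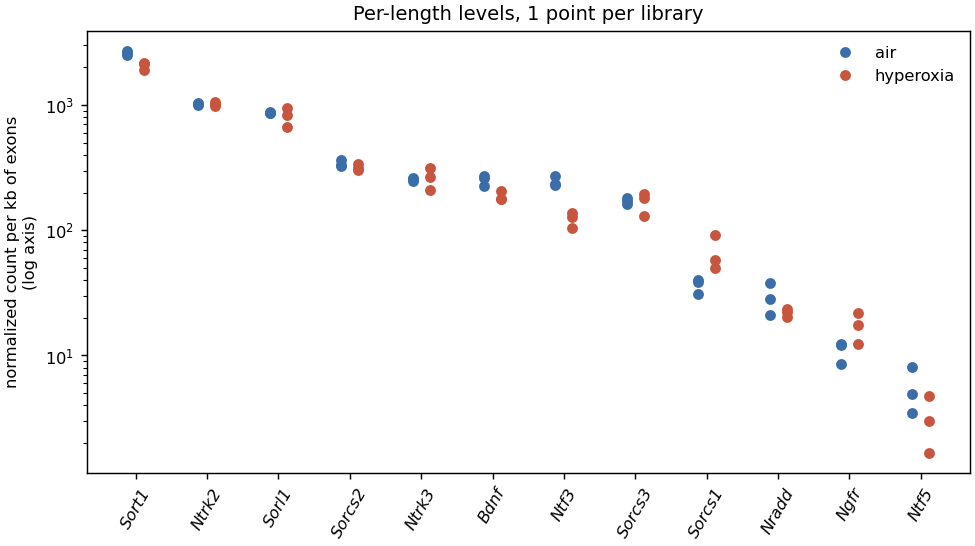
Normalized count per kilobase of exons (log axis) for the members and their relatives, ordered by the mean in air, with a point for each air and each hyperoxia library. Sort1 and Ntrk2 are at the top, Ntrk3, Bdnf and Ntf3 lie together in air, Ntf3 drops in hyperoxia, and Ngfr and Ntf5 are at the bottom.

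Ligand and receptor were also compared within each library, where the size factor cancels. The log2 ratio of Bdnf to Ntrk2 went from −3.65 ± 0.16 (SD, n = 3) with air to −4.08 ± 0.14 (SD, n = 3) with hyperoxia. The log2 ratio of Ntf3 to Ntrk3 went likewise from −4.19 ± 0.11 (SD, n = 3) to −5.22 ± 0.33 (SD, n = 3). Ntrk2 to Ngfr changed by −0.62 and Sort1 to Ngfr by −0.95. The ratio of Bdnf to Ntf3 rose from 1.90 ± 0.10 (SD, n = 3) to 2.46 ± 0.16 (SD, n = 3). In all 5 ratios the groups did not overlap, which gives the smallest p that an exact two-sided permutation test of 3 against 3 allows, 0.1 (0.1 also when adjusted over the 5 ratios). None of them can therefore pass a threshold of 0.05. They share genes with each other and follow from the single changes given above.

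The genes most like each member over the 6 libraries were sought among 12771 genes with a mean of at least 100, as the smallest root mean square difference of centred log2 values. Bdnf was closest to Hyi (0.0089) and Rwdd1 (0.038). Ntf3 was closest to Ccdc34 (0.056) and Tbata (0.074), which changed by −1.03 and −1.05. Ntrk2 was closest to Sugp2 and Ankrd27, and Ntrk3 to Ppm1e and Nin. Ngfr was closest to Amn (0.061) and Tmem255b (0.078), and Sort1 to Dlg3 (0.023) and Rbm6 (0.027). With 6 libraries in 2 groups, many genes share such a pattern.

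Genes that process and release neurotrophins changed in both directions. Of 21 tested, 3 were called higher and 4 lower (33.3%, against 30.5% of all genes), with a median log2 fold change of 0.06 against −0.01 over all genes tested. Chgb, a granin of dense-core vesicles, fell from 38545 ± 2468 (SD, n = 3) to 18086 ± 2168 (SD, n = 3), a log2 fold change of −1.10 (limma adjusted p = 3.1e-04). Scg2, another granin, fell by 0.36 on the log2 scale (0.011), a call that was lost without air library 1 (0.051). Gga1 and Gga3, adaptors that carry sortilin from the Golgi, fell by 0.61 (0.0031) and 0.39 (0.0037). Pcsk1, the convertase of the regulated secretory pathway, rose from 182 ± 33.8 (SD, n = 3) to 354 ± 70.4 (SD, n = 3), a change of 0.96 (0.0043). Vps35, a part of the retromer that recycles sortilin, rose by 0.40 (0.0069), and by 0.17 after correction for length and GC content. Furin, the convertase of the trans-Golgi, was 1828 in air and 1824 in hyperoxia (adjusted p 0.98), and without hyperoxia library 2 the list had 13 calls in place of 7.

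Proteins that act next to the Trk receptors gave 7 calls higher and 2 lower among 26 tested (34.6%, against 30.5% of all genes), with a median of 0.10 and 6 to 13 calls with a library left out. Shc3, an adaptor of neurons that binds activated Trk receptors, rose from 497 ± 75.1 (SD, n = 3) to 1092 ± 283 (SD, n = 3), a log2 fold change of 1.11 (limma adjusted p = 0.0027). Dok5, a docking protein bound by TrkB and TrkC, rose by 0.85 (0.0076), and Gab2, which links receptors to phosphoinositide 3-kinase, rose by 0.67 (0.0010). Crkl, an adaptor of the path to Rap1, rose by 0.50 (0.0043). Grb2, the adaptor that recruits Sos to receptors, fell by 0.21 (0.041) and Sh2b1, a Trk adaptor, fell by 0.27 (0.019), but these calls were lost in 10 and 5 of the 16 alternatives, with adjusted p up to 0.15 and 0.086. After correction for length and GC content they were at −0.14 and −0.18. Shc1 (0.14, adjusted p 0.26), Frs2 (−0.14, 0.34) and Plcg1 (−0.18, 0.11), which bind the docking sites of TrkB, were not called.

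Genes for Trk trafficking and turnover gave 5 calls higher and 4 lower among 22 tested (40.9%, against 30.5% of all genes), with a median of 0.05, and 5 calls without air library 1 or without air library 2. Rab27b, a small GTPase of vesicle transport, rose by 0.59 (limma adjusted p = 0.0027; 0.26 after the correction for length and GC content), and Ptprf, a receptor phosphatase, by 0.55 (0.0014). Cbl, a ubiquitin ligase, rose by 0.59 (0.013) and Ehd4, an endocytic protein of the Trk receptors, by 0.41 (0.014), and each of these calls was lost in 3 alternatives. The length and GC correction gave 0.30 for Cbl. Slitrk5, a partner of TrkB in recycling, fell by 0.45 (0.0039), and Usp8, a deubiquitinase of endosomes, fell by 0.40 (0.0030). Cblb fell by 0.41 (0.021) and Dlg4, the scaffold PSD95, by 0.33 (0.019), and both calls were lost in 5 alternatives, with adjusted p up to 0.074 and 0.24. Dlg4 was at −0.12 under quantile normalization and at −0.51 under the length and GC correction.

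Partners of p75 gave 8 calls lower and 3 higher among 26 tested (42.3%, against 30.5% of all genes called and 15.6% called lower), with a median of −0.03. Bex3, which binds the death domain of p75, fell from 7398 ± 525 (SD, n = 3) to 4641 ± 278 (SD, n = 3), a log2 fold change of −0.67 (limma adjusted p = 7.2e-04). Mag, a myelin protein that signals through the p75 receptor complex, fell by 0.72 (0.0026), and it is also among the 7 oligodendrocyte markers, 6 of which were called lower with sums of 216995 to 329682 in air and 148914 to 181915 in hyperoxia. Rtn4rl1, a relative of the Nogo receptor, fell by 0.53 (0.0034) and Rela, a subunit of NF-kB, by 0.43 (0.0073). Zfp369, a relative of the p75 partner NRIF, rose by 0.73 (0.0060). The stress kinase genes Mapk9 and Mapk8 rose by 0.36 (0.0053) and 0.35 (0.0090), but Mapk8 was at 0.11 (0.19) after the length and GC correction. The list had 7 calls in place of 11 without air library 1, without air library 2 and in limma without the trend.

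Regulators of Bdnf transcription were called in 13 of 26 cases (50%, against 30.5% of all genes), 7 lower and 6 higher, with a median of −0.03. The list was chosen with earlier results of these data known, so its share of calls is no test of the list. Npas4, an activity-induced factor that binds Bdnf promoters, fell from 589 ± 73.4 (SD, n = 3) to 286 ± 39.1 (SD, n = 3), a log2 fold change of −1.04 (limma adjusted p = 9.0e-04). Crtc2, a coactivator of CREB, fell by 0.72 (4.0e-04), Srf by 0.52 (0.0010) and Usf2, a factor that binds a Bdnf promoter, by 0.45 (0.0032). In the other direction, Mef2c rose from 3924 ± 136 (SD, n = 3) to 9769 ± 4117 (SD, n = 3), with a wide spread in hyperoxia and a change of 1.24 (0.0039). Tet1, which oxidizes methylated cytosine, rose by 1.13 (0.0018), Camk4, a kinase of CREB, by 0.92 (0.0020) and Ppargc1a by 0.48 (0.0032), the last of which was lost after the length and GC correction (0.054). Creb1, the gene of CREB, averaged 2020 ± 50.4 (SD, n = 3) with air and 2009 ± 208 (SD, n = 3) with hyperoxia (limma adjusted p = 0.92). Correcting for length and GC content was the only alternative that called it (0.0044, against up to 0.99 in the others).

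Genes known to be induced by neurotrophins and by neuronal activity were called in 15 of 26 cases (57.7%, against 30.5% of all genes called and 15.6% called lower), 13 lower and 2 higher, with a median of −0.30 against −0.01 over all genes tested. Arc, an effector of synaptic plasticity, fell from 5268 ± 183 (SD, n = 3) to 1690 ± 143 (SD, n = 3), a log2 fold change of −1.64 (limma adjusted p = 4.7e-05). The transcription factor genes Fosb, Egr2 and Egr1 fell by 0.98 (0.0018), 0.93 (0.020) and 0.90 (0.0028), and the Egr2 call was lost in 3 alternatives (adjusted p up to 0.093). Klf4 rose by 0.97 (0.0020), and Spred1, an inhibitor of the ERK pathway, rose by 0.41 (0.0044), and by 0.17 once corrected for length and GC content. This list too was chosen with earlier results of these data known, so its share of calls is no test of the list. Many of its genes respond to other stimuli as well, so their counts are no measure of Trk activity.

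**Figure D5:**
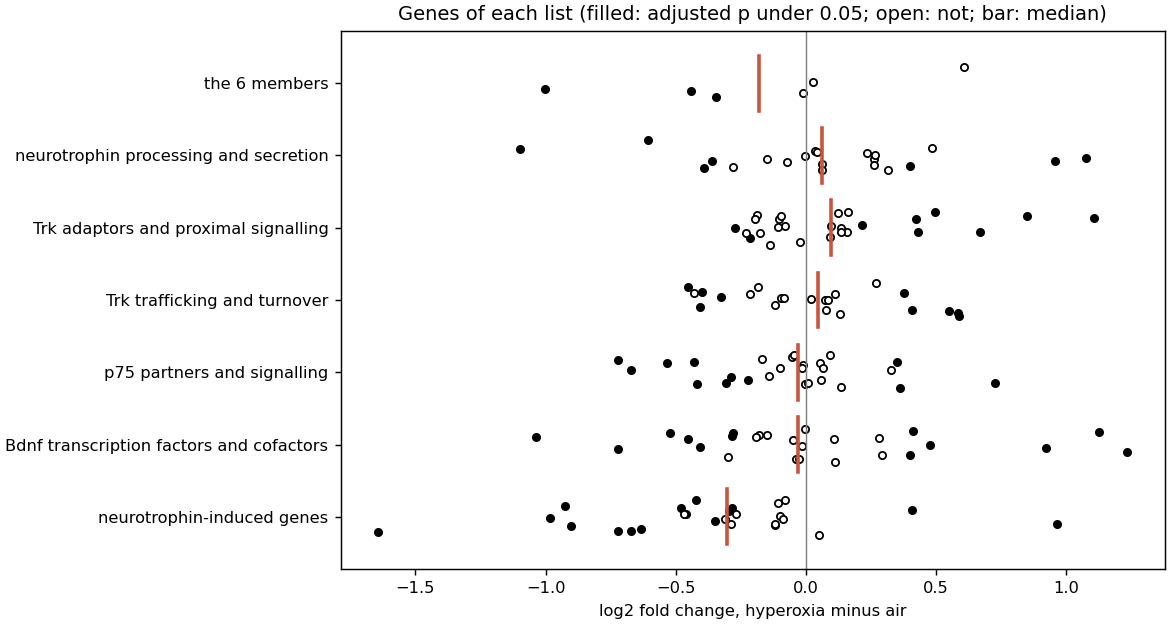
Log2 fold change (horizontal axis, hyperoxia minus air) of every tested gene of the members and of 6 lists (rows), with filled points for an adjusted p under 0.05, open points for others and a bar at the median. The points of the processing, adaptor, trafficking, p75 and transcription lists lie on both sides of 0 with medians between −0.03 and 0.10, and the median of the neurotrophin-induced genes is −0.30.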

How the data were processed

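RNA from the left hippocampus was sequenced from strand-specific polyA libraries. The deposited signal is a normalized count, for which the authors divided the reads of each gene by 1 size factor per library. The submitters' processing notes name FastQC, STAR 2.5.3a, HTSeq and DESeq2, and the genome build and annotation are not given in the sources read here. All values were whole multiples (within 0.01) of the value of 1 read, so reads could be recovered. A second deposited table holds the authors' own fold changes and p-values and was not used.

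Hyperoxia minus air was tested with limma 3.58.1 (R 4.3.3, mean-variance trend) on log2 of the value plus 1, which understates changes of low genes, for genes averaging 10 or more, with Benjamini-Hochberg adjustment over all 17778 genes. Alternatives were edgeR 4.0.16 and DESeq2 1.42.0 on the recovered reads, pseudocounts of 0.5 and 5, other filters and scalings, no trend, each library left out, and a length and GC correction (mgcv 1.9.3). The fits were tested on simulated data with equal variability in all genes and libraries, so that test does not cover the wider spread of the hyperoxia libraries. GENCODE M21 held 99.68% of the gene identifiers. The members and lists were chosen with earlier results of these data known. Named were the members, their relatives, the 2 genes most like each member and, per list, up to 4 called genes with the largest rise and 4 with the largest fall whose groups do not overlap. Also named, by choice after their values were seen, were Furin, Shc1, Frs2, Plcg1, Creb1 and Chat. The limma p-values set the group difference against the spread between 3 mice per group, moderated by a trend over all genes tested. They take the mice as independent, although the litter of each is not known. Some genes of these lists are not reported here.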

Additional observations from a re-analysis of the deposited data

How the results depend on the processing

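The number of called genes was 5425, and with each library left out it ranged from 3048 to 7756. The members had 3 calls and 5 after the length and GC correction, and 2 to 4 with a library left out. With a library left out, the lists ranged from 1 to 2 calls (other ligands and receptors), 6 to 13 (processing), 6 to 13 (adaptors), 5 to 11 (trafficking), 7 to 13 (p75 partners), 11 to 17 (Bdnf transcription) and 11 to 16 (induced genes). Limma without the trend left 1 call among the other ligands and receptors and 7 among the p75 partners. Ntrk2 turned to 0.095 under quantile normalization and Ntrk3 to −0.29 with the length and GC correction. With a library left out, log2 fold changes ranged from −0.039 to 0.016 for Ntrk2 (above 0 without air library 3, at 0.0038, and without hyperoxia library 2), −0.11 to 0.18 for Ntrk3 (below 0 without hyperoxia library 3), −0.17 to 0.12 for Sorcs3 and −0.24 to 0.016 for Sorl1 (both above 0 without hyperoxia library 2). With the longest transcript as length, the air levels per kilobase were 2891 (Sort1), 2261 (Ntrk2), 390.5 (Ntrk3), 371 (Bdnf) and 285 (Ntf3). The causes were not tested. Of 53 named genes with a test, 45 were called, a share set largely by the naming rule, which picks called genes whose groups do not overlap. None of these 45 reversed and 32 were called under every alternative that could be run, which holds for genes so picked and not for genes at large. A mean of at least 50 left no value for Ngfr. The within-library ratios kept their direction, and moved by less than 1 SD, under the pseudocounts and with each library left out. No paired analysis was possible because the labels number the 6 animals through both groups and the numbers of the columns name no animal. Counts of 29 to 85 reads limit Ngfr, and those of Ntf5 are lower still.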

Other observations

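Markers of other cell types in the tissue moved as follows, given as summed normalized counts. The calls stand against 14.9% of all genes tested called higher in hyperoxia and 15.6% called lower. Oligodendrocyte markers were lower in hyperoxia, as given above, and choroid plexus sums overlapped (562 to 1431 in air and 506 to 8228 in hyperoxia). The other glial, vascular and neighbouring-tissue lists had higher sums in hyperoxia. Oligodendrocyte precursors had 19474 to 22115 in air and 22590 to 24764 in hyperoxia (3 of 6 called higher), and microglia had 10484 to 10555 and 11113 to 12247 (2 of 7 called higher). Endothelial markers gave 7813 to 8168 in air and 9261 to 10445 in hyperoxia (4 of 7 called higher, 1 lower), and pericyte and smooth muscle markers 9099 to 9420 and 10074 to 12250 (1 of 6 tested called higher). Of 8 astrocyte markers, 3 were called higher and 1 lower. Thalamic markers gave 4668 to 4713 and 5221 to 6232 (2 of 6 called higher), and neocortical markers 9816 to 10657 and 11226 to 14262 (2 of 6 called higher). CA3 markers were lower, with 12960 to 13326 in air and 10249 to 12280 in hyperoxia (3 of 6 called lower, 1 higher). GABAergic interneuron markers overlapped between the groups (22633 to 26102 and 20815 to 27594). Of 7 tested choroid plexus markers, 1 was called higher.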
